A study of Mus musculus with 8 samples.

Results

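The smooth muscle genes of embryonic heart muscle are described here: Acta2, Actg2, Tagln, Tagln2, Cnn1, Mylk, Smtn, Lmod1, Myh11 and Myocd. They were taken by gene name from the scanner output of every array, which gave 10 genes of 27729 gene names, and 18 probes (27 spots) of 41174 non-control probes. The rule for choosing them uses gene names and no measured value, but the list was chosen with earlier results of these data known. Acta2, Tagln and Cnn1 were grouped as early genes of the smooth muscle programme and Myh11 and Lmod1 as late ones.

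RNA was measured on 8 one-colour Agilent arrays, 4 per group, from hearts of mouse embryos at E10.5. All embryos carried minK-GFP, a bacterial artificial chromosome transgene in which green fluorescent protein follows minK (Kcne1), a potassium channel subunit gene. Dissociated heart cells were separated by flow cytometry into GFP-high cells, labelled as conduction system, and GFP-low cells, labelled as chamber myocardium, and no further treatment is given. The labels call the samples biological replicates and do not say whether samples with the same number share a litter or a sort, and each sample gave 5 ng of RNA that was amplified before labelling. As a model, the 2 groups are bulk samples defined by the level of 1 reporter, and the cells of a group can include any cell type of the heart with that level.

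Smooth muscle contracts when a myosin light chain kinase, the product of Mylk, phosphorylates the regulatory light chain of smooth muscle myosin (Myh11), which then pulls on actin filaments (Acta2, Actg2). Transgelin (Tagln), calponin 1 (Cnn1), smoothelin (Smtn) and leiomodin 1 (Lmod1) bind those filaments. The transcription of these genes is driven by serum response factor with its coactivator myocardin (Myocd). In mouse embryos, Acta2, Tagln, Cnn1 and Myocd are also active in heart muscle cells, whereas Myh11 and Lmod1 are used as markers of differentiated smooth muscle.

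All early and late genes were measured in both groups. At least 1 probe each of Acta2, Tagln, Cnn1, Myh11 and Lmod1 was well above background, as flagged by the scanner software, on all 8 arrays. No smooth muscle gene differed between GFP-high and GFP-low cells at an adjusted p under 0.05, and Mylk was not measured well enough to be tested. Differences, given as log2 of GFP-high minus GFP-low, ran from -0.51 for Myocd to 0.50 for Cnn1.

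The genes were read through short oligonucleotides, and 3 of the 18 probes crossed an intron, so they match the spliced transcript across a junction. These probes gave the tested values of the actins Acta2 and Actg2 and of the late gene Myh11, and those of Acta2 and Myh11 are printed as the probes of an early and a late gene. In mm9 coordinates, both on the minus strand, the ends of the Acta2 probe lay at chr19:34322995-34326249, a span of 3255 bases for 60 bases of probe. Those of the Myh11 probe lay at chr16:14195223-14198147, over 2925 bases. All letters are lower case because no position within them is set apart.
Acta2 probe: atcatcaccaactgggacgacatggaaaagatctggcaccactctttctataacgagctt
Myh11 probe: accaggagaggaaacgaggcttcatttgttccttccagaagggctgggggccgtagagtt
The coding sequences of the actin genes, including the heart muscle actin gene Actc1, are nearly the same, so signal of the intron-crossing Acta2 and Actg2 probes can include RNA of other actins, and their values are uncertain in that respect. The other 15 probes mapped to 1 unbroken stretch. Exon and untranslated region annotation of mm9 was not used here.

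Serum response factor binds the CArG box, which reads CCNNNNNNGG with A or T at all 6 middle positions. The 250 bases before the RefSeq start of each gene (assembly GRCm38.p6) were searched for CCNNNNNNGG with A or T at 5 or more of the 6 middle positions. The pattern equals its own reverse complement, so 1 search covers both strands. Of the 10 genes, 6 had an entry (Acta2, Tagln2, Cnn1, Smtn, Mylk and Lmod1). Matches were found in Acta2 only, at 2 places starting 84 and 34 bases before the start, and neither had A or T at all 6 positions. The Acta2 sequence is printed because it held these matches and because its known regulators Srf and Myocd were both measured here. It lies at chr19:34255374-34255623 of GRCm38.p6, is written 5′ to 3′ on the minus strand and ends at the base before the start. Capitals mark the matches.
Acta2 promoter: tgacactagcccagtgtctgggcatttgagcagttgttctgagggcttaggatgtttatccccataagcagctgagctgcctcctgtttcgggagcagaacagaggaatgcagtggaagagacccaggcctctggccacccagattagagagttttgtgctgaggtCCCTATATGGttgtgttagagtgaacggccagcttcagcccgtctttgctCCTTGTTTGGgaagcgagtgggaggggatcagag
Among all 32544 distinct promoter sequences of that length, 8.59% held at least 1 such match, 0.661% held 2 or more, and 1.48% held a CArG box with A or T at all 6 middle positions. A match is a description of the letters and shows no binding.

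The number of spots well above background ran from 15735 (replicate 3 of GFP-high) to 22003 (replicate 2 of GFP-low) of 43379 non-control spots, and no spot was saturated. Both probes of Kcne1, the reporter's gene, were higher on all GFP-high arrays than on any GFP-low array, by 1.29 and 2.83 on the log2 scale. All 10 heart muscle markers examined (Tnnt2, Tnni1, Actn2, Ttn, Ryr2, Myl7, Myl4, Nkx2-5, Nppa and Mybpc3) were well above background on all 8 arrays, with a median difference of 0.34. Differences were positive for 9 of them. Nppa differed by -0.89 (limma, adjusted p = 0.186) and was lower on every GFP-high array than on any GFP-low array. Mybpc3 was higher on every GFP-high array, by 0.46 (limma, adjusted p = 0.367). Over the 12875 genes tested, 18 passed (0.14%), 9 in each direction (0.0699% each), and the median difference was 0.16. Slide 1 held replicates 1 and 2 of both groups, slide 2 held replicates 3 and 4, and each slide was 1 scan, so differences within slides are given beside the others. The number of arrays limits the precision of every value.

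**Figure D1:**
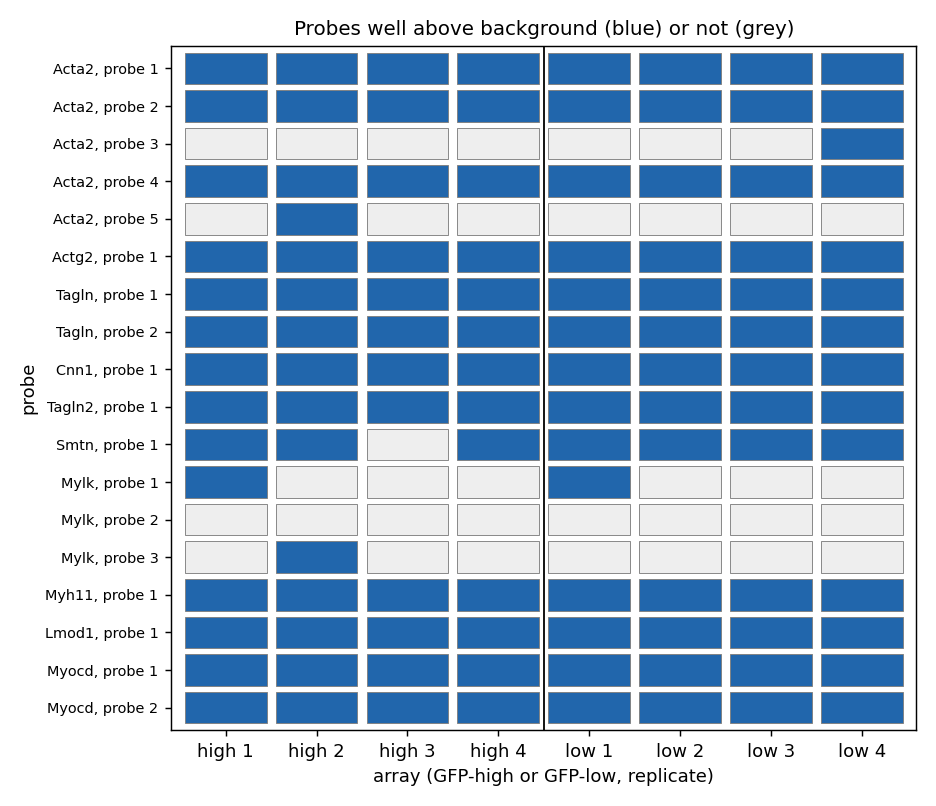
Scanner calls for the 18 probes of the 10 smooth muscle genes (rows) on the 8 arrays (columns, named by group and replicate). Blue cells are probes well above background and grey cells are probes that were not. The probes of Myh11 and Lmod1 are blue on all 8 arrays, as are those of Tagln and Cnn1 and 3 of the 5 for Acta2, and the 3 Mylk probes are blue on 2, 0 and 1 arrays.

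Of the 18 probes, 12 were well above background on all 8 arrays, 1 on 7 arrays (Smtn), 4 on 1 or 2 arrays and 1 on none. Early and late genes could not be told apart by this measure. For Acta2, 3 of 5 probes were above background on every array, and the other two were each above it on 1 array. Both Tagln probes and the only probes of Cnn1, Myh11 and Lmod1 were above it on every array. Levels of different probes are not compared, since each oligonucleotide binds with its own strength, so these data do not order early and late genes by abundance.

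Acta2, the actin of vascular smooth muscle, was measured by the intron-crossing probe at 7.62, 7.67, 6.94 and 7.78 in GFP-high replicates 1 to 4 and at 7.45, 7.67, 6.11 and 7.73 in GFP-low replicates 1 to 4. These and all levels that follow are log2 signals relative to the 75th percentile of their array. Replicate 3 was the lowest array of each group, and the groups overlapped. The difference was 0.26 ± 0.41 (standard error, 95% interval -0.66 to 1.19, 4 arrays per group), a 1.2-fold ratio (limma, adjusted p = 0.773). It was 0.09 within slide 1 and 0.44 within slide 2, and without GFP-low replicate 3 it turned to -0.11. A probe at chr19:34316060-34316119 that was spotted 10 times per array read 7.04, 7.09, 6.41 and 7.27 in GFP-high and 6.99, 7.21, 6.53 and 7.36 in GFP-low, again lowest in replicate 3 of each group. Its repeated spots differed by an SD of 0.020 to 0.174 within an array, less than the SD between arrays of a group (0.38 and 0.36). Another probe, at chr19:34315697-34315756, read 5.81, 5.55, 5.50 and 5.98 in GFP-high and 6.26, 6.0, 5.26 and 6.28 in GFP-low. The differences on these probes, -0.07 and -0.24, had the opposite sign to that of the intron-crossing probe. Both lay within the interval of that probe, which rests on the same arrays and so does not test whether the probes agree. The remaining Acta2 probes, at chr19:34315196-34315254 and chr19:34327946-34328005, read between -5.61 and -1.0 and are not interpreted.

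Actg2, the actin of visceral smooth muscle, read 7.43, 7.45, 6.76 and 7.36 in GFP-high and 6.76, 6.97, 6.37 and 7.24 in GFP-low. GFP-high replicate 3 lay below the rest of its group, and the groups overlapped at that array and GFP-low replicates 2 and 4. The difference was 0.42 ± 0.28 (interval -0.23 to 1.07, 1.34-fold), with an adjusted p of 0.512 in the limma fit. It was positive on both slides, at 0.58 within slide 1 and 0.26 within slide 2.

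**Figure D2:**
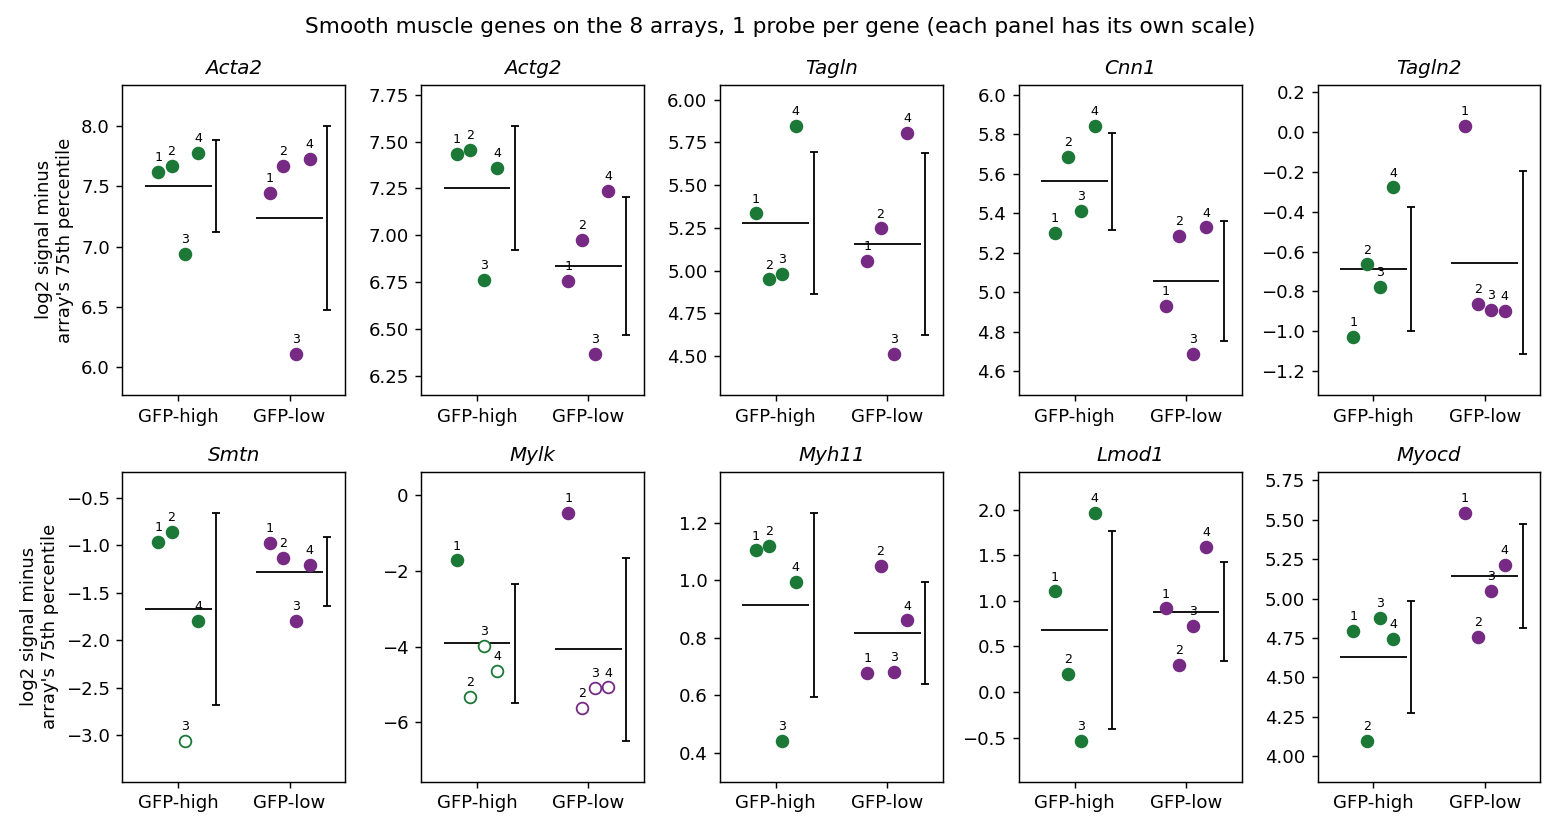
Level of each smooth muscle gene on each array, with 1 probe per gene (the probe of highest mean signal), as log2 signal minus the array's 75th percentile. Points are arrays numbered by replicate, open points were not well above background, horizontal lines are group means and bars are mean ± SD (n = 4), and each panel has its own scale. The points of GFP-high and GFP-low overlap in all 10 panels.

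Among the genes for actin-binding proteins, Tagln was measured by 2 probes. The brighter, at chr9:45738097-45738156, read 5.33, 4.95, 4.98 and 5.85 in GFP-high and 5.06, 5.25, 4.51 and 5.81 in GFP-low. The second, at chr9:45738916-45738975, read 4.60, 4.59, 4.06 and 5.13 in GFP-high and 4.23, 4.45, 3.84 and 4.93 in GFP-low. Replicate 4 was the highest array of both groups on both probes, and the spread within groups was larger than the difference between them. The tested probe differed by 0.12 ± 0.34 (interval -0.66 to 0.91; limma, adjusted p = 0.881). Its sign was not stable: the value was -0.01 within slide 1 and 0.25 within slide 2, and -0.04 after quantile normalisation. The second probe differed by 0.24.

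Cnn1, which encodes calponin 1, had the largest positive difference of the 9 genes tested. It read 5.30, 5.69, 5.41 and 5.84 in GFP-high and 4.93, 5.28, 4.69 and 5.33 in GFP-low at chr9:21913058-21913117. The lowest GFP-high array, replicate 1, lay 0.03 below the highest GFP-low array, replicate 4, and that was the extent of the overlap. The difference was 0.50 ± 0.26 (interval -0.08 to 1.09, 1.42-fold), and it did not pass the test (limma, unadjusted p = 0.0815, adjusted p = 0.397). It was 0.39 within slide 1 and 0.62 within slide 2. By p, Cnn1 was in place 2644 of the 12875 genes tested.

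Tagln2, a relative of Tagln that is expressed in many cell types, read -1.03, -0.66, -0.78 and -0.28 in GFP-high and 0.03, -0.86, -0.89 and -0.90 in GFP-low at chr1:174437142-174437201. GFP-low replicate 1 stood above all other arrays, and the other three GFP-low arrays lay within 0.03 of each other. The difference was -0.03 ± 0.30 (interval -0.72 to 0.66; limma, adjusted p = 0.971), with -0.43 within slide 1 and 0.37 within slide 2. Without GFP-low replicate 1 it was 0.20.

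Smtn, a marker of contractile smooth muscle, read -0.97, -0.87, -3.06 and -1.79 in GFP-high and -0.97, -1.13, -1.80 and -1.21 in GFP-low at chr11:3420834-3420893. GFP-high replicate 3 was not well above background for this probe, and it was also the array with the fewest spots above background. The difference was -0.39 ± 0.49 (interval -1.51 to 0.73; limma, adjusted p = 0.720), and without that array it was 0.07. Within slide 1 it was 0.13 and within slide 2 it was -0.92.

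Mylk, the kinase gene, had 3 probes, none of them above background on more than 2 arrays. The probe at chr16:34954118-34954177 was above background in replicate 1 of each group, at -1.73 in GFP-high and -0.47 in GFP-low, and the other six arrays read between -5.63 and -3.98. The probe at chr16:34996839-34996898 was above background in GFP-high replicate 2 only, at -2.80, and the probe at chr16:34995162-34995221 on no array. No difference is given for Mylk, since a probe that is not well above background gives only a bound, and in both groups these probes were near the background.

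Neither late gene passed the test. Myh11, the smooth muscle myosin heavy chain, read 1.1, 1.12, 0.44 and 0.99 in GFP-high and 0.68, 1.05, 0.68 and 0.86 in GFP-low on the intron-crossing probe. The GFP-low values all lay within the range of the GFP-high values. The difference was 0.10 ± 0.25 (interval -0.47 to 0.66; limma, adjusted p = 0.868), the narrowest interval of the 9 genes tested, with 0.25 within slide 1 and -0.05 within slide 2. Lmod1, an actin filament nucleator of smooth muscle, read 1.1, 0.20, -0.53 and 1.97 in GFP-high and 0.92, 0.29, 0.72 and 1.59 in GFP-low at chr1:137263311-137263369. Its GFP-high arrays spanned the whole range of the GFP-low arrays, and its interval was the widest. The difference was -0.20 ± 0.55 (interval -1.44 to 1.05; limma, adjusted p = 0.878), with 0.04 within slide 1, -0.44 within slide 2 and 0.21 without GFP-high replicate 3.

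Myocd, which encodes the coactivator of serum response factor, had the largest negative difference. Its brighter probe, at chr11:64990406-64990465, read 4.80, 4.10, 4.88 and 4.75 in GFP-high and 5.54, 4.76, 5.05 and 5.21 in GFP-low. GFP-low replicates 1, 3 and 4 lay above all GFP-high arrays, and GFP-low replicate 2 lay among them. The difference was -0.51 ± 0.28 (interval -1.15 to 0.13; limma, unadjusted p = 0.105, adjusted p = 0.427), 1.43-fold higher in GFP-low, with -0.70 within slide 1 and -0.32 within slide 2. The second probe, at chr11:64992282-64992341, did not share it. It read 0.21, -0.95, 0.01 and 0.60 in GFP-high and 0.37, -0.46, 0.01 and -0.09 in GFP-low, a difference of 0.01. Both probes were lowest in replicate 2 of each group.

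**Figure D3:**
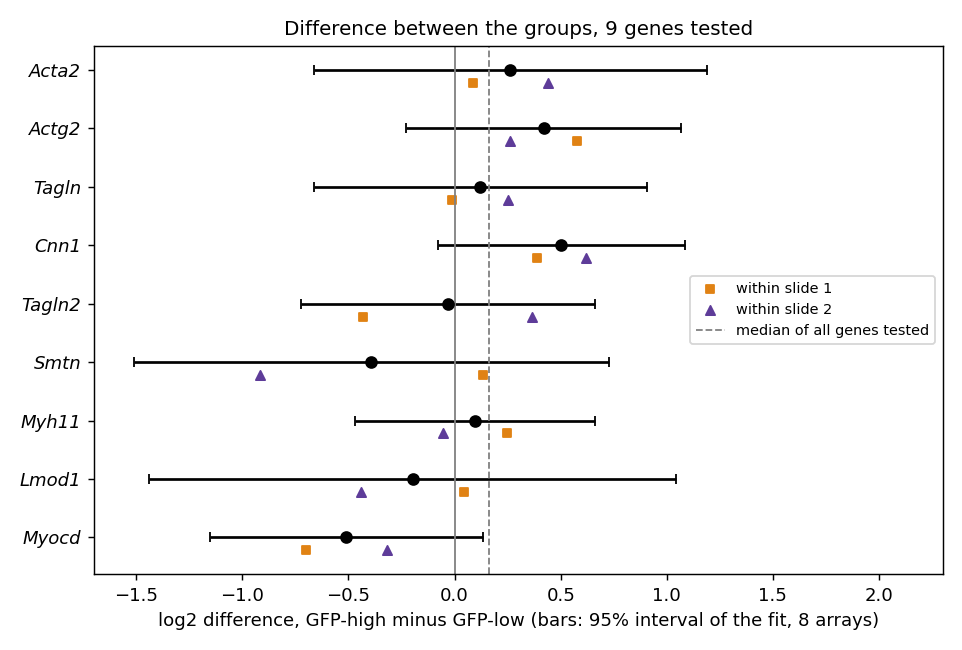
Difference of each of the 9 tested smooth muscle genes (rows) as log2 GFP-high minus GFP-low (horizontal axis). Black points and bars are the fitted difference and its 95% interval over 8 arrays, orange squares and purple triangles are the differences within slide 1 and slide 2, and the dashed line is the median of all genes tested, 0.16. All 9 intervals include 0, and the largest differences are those of Cnn1 (0.50) and Myocd (-0.51).

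Over the list, 0 of 9 tested genes passed at an adjusted p under 0.05, against 0.14% of all genes tested. None passed at an unadjusted p under 0.05, which 14.3% of all genes did. No member had groups that did not overlap, against 8.95% of all genes. Differences were positive for 5 genes and negative for 4, against 62.1% positive over all genes, and the median was 0.10 beside 0.16 over all genes. The intervals leave room for differences in either direction: the upper bounds ran from 0.13 (Myocd) to 1.19 (Acta2) and the lower bounds from -1.51 (Smtn) to -0.08 (Cnn1). On simulated arrays with the spreads of these data, the fit found 0 of 100 genes with a true log2 difference of 1 and 25 of 100 with one of 2. Those genes were drawn at random from all genes tested, whose spreads differ, so the counts do not give the recovery for the smooth muscle genes. In bulk samples, fewer cells of a type and less RNA per cell cannot be told apart.

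Replicates 3 and 4 of both groups often stood at the ends of their group. Over the 12 smooth muscle probes that were above background on all 8 arrays, GFP-high replicate 4 was the highest of its group for 9 probes and GFP-low replicate 4 for 8. Over all 12074 such probes on the array, these arrays were the highest of their group for 17.4% and 28.8%. GFP-high replicate 3 and GFP-low replicate 3 were each the lowest of their group for 7 of the 12 probes, against 37.2% and 38.3% of all probes. The 12 probes share genes, since 3 belong to Acta2, 2 to Tagln and 2 to Myocd.

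**Figure D4:**
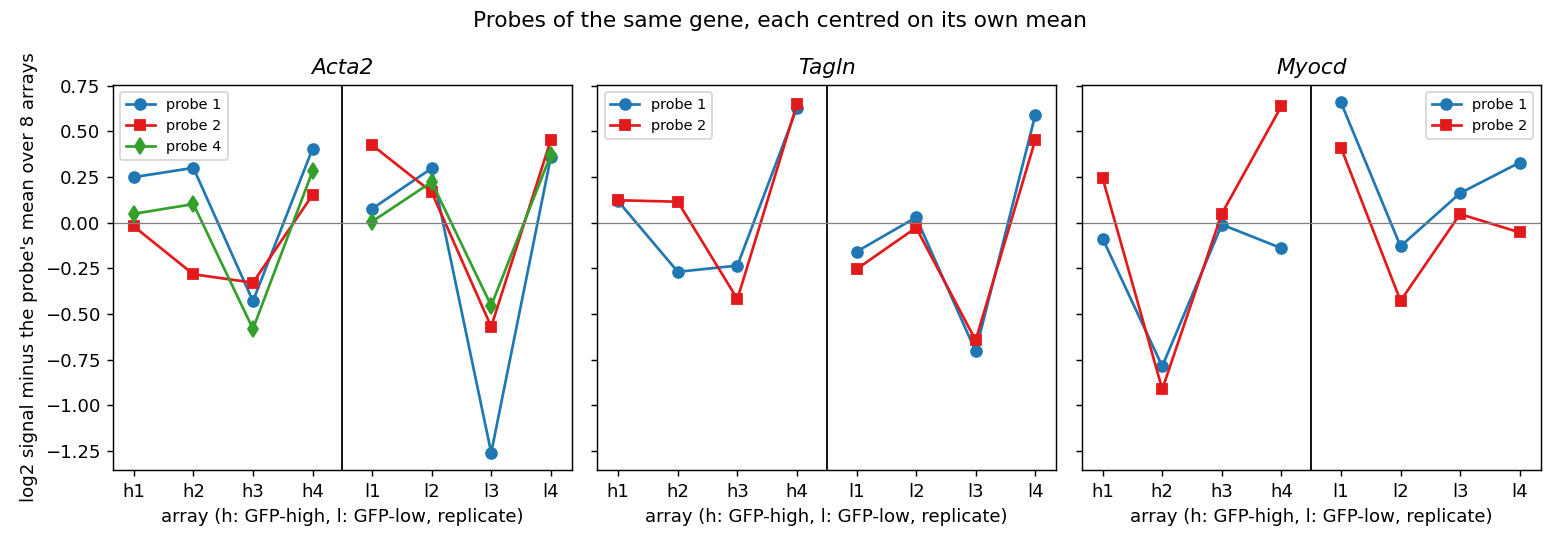
Probes of Acta2 (3), Tagln (2) and Myocd (2) that were above background on all 8 arrays, each as log2 signal minus the probe's own mean over the 8 arrays (vertical axis), by array (h is GFP-high, l is GFP-low, with the replicate number). Probes of Acta2 and Tagln are low in replicate 3 and high in replicate 4 of both groups, apart from the brighter Tagln probe in GFP-high, where replicate 2 is the lowest, and Myocd probes are low in replicate 2.

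The tested genes with the array profile closest to each early gene were found by the root mean square of the log2 differences over the 8 arrays, after each gene was centred on its own mean. For Acta2 these were Riox1 (0.12), Ccdc167 (0.13) and Eif3g (0.14). The closest to Tagln were Mapkapk2 (0.12), Kptn (0.13) and Kcnh2 (0.15), and to Cnn1 they were Tmem258 (0.10), Higd1a (0.12) and Cpt1b (0.12). For scale, the SD of the early genes over the 8 arrays was 0.57 for Acta2, 0.45 for Tagln and 0.37 for Cnn1. No smooth muscle gene was among these neighbours. So few neighbours were taken from the 12875 genes tested that this absence says little about profiles shared among the smooth muscle genes.

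Regulators of the programme were described from a list of 22 genes, of which 16 were tested. None passed in either direction, 9 differences were positive and 7 negative, and the median was 0.12. Srf, the transcription factor that binds the CArG box, differed by 0.43 ± 0.27 (limma, adjusted p = 0.477). Its other coactivators Mkl1 (Mrtfa) and Mkl2 (Mrtfb) differed by 0.83 and 0.41, with adjusted p of 0.425 and 0.826 in the same fit. Fhl2 and Hopx had the smallest p of the regulators described here. Fhl2, a LIM domain protein that binds serum response factor, read 5.28, 5.61, 5.28 and 5.22 in GFP-high and 4.15, 4.30, 4.15 and 4.17 in GFP-low. All its GFP-high values lay above its GFP-low values, by 1.15 ± 0.21 on average (limma, adjusted p = 0.112). Of 24 refits it passed in 2 only, and over all of them its adjusted p in limma reached 0.867. Those 2 were the fits with a common floor for values near background (0.0212) and with a variance trend and robust fitting (0.0165). The mean over its 3 probes, 2 of them near background, differed by 0.22. Hopx, an inhibitor of serum response factor, was also higher on every GFP-high array, by 0.76 (limma, adjusted p = 0.261).

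Of 28 other contractile and cytoskeletal genes of smooth muscle, 26 were tested and none passed, with 11 positive and 15 negative differences and a median of -0.13. The 3 with the smallest p were Cald1, Actn1 and Ppp1r12a. Cald1, the gene of the actin-binding protein caldesmon, read 0.36, -0.65, 1.03 and 0.31 in GFP-low on its tested probe. On that probe it was above background on 1 GFP-high array only, at -1.05. Its groups did not overlap, at a difference of -3.59 (limma, adjusted p = 0.168). All 4 GFP-low arrays were above background, so the probe met the detection filter through that group. Its rank by p and its separation are therefore not independent of the filter. The size of that difference rests on GFP-high values below background: it was -1.80 with a common floor and -1.57 after normexp background correction. The second Cald1 probe differed by -2.07, and its groups overlapped. Actn1, a cytoskeletal actinin, also did not overlap between groups, with a difference of -1.54 (limma, adjusted p = 0.192), and Ppp1r12a, the targeting subunit of myosin phosphatase, differed by -1.30 (limma, adjusted p = 0.256).

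Paralogues of the smooth muscle genes in striated muscle or other cells made a list of 19 genes, of which 15 were tested and none passed. Differences were positive for 11 and negative for 4, with a median of 0.22. The actin genes Actc1 and Acta1 differed by 0.56 and 0.42 (limma, adjusted p = 0.408 and 0.571), beside 0.26 for Acta2 and 0.42 for Actg2. The 3 paralogues with the smallest p were Lmod3, Cnn3 and Lmod2. Cnn3, a calponin of non-muscle cells, was higher on every GFP-high array, by 0.71 (limma, adjusted p = 0.257). Lmod3 and Lmod2, the leiomodins of striated muscle, differed by -2.40 and -2.39 (limma, adjusted p = 0.224 and 0.331), with 2 and 1 GFP-high arrays above background against 4 and 3 GFP-low arrays. The sizes of these differences rest on values near background. They were -1.03 and -0.74 with a common floor and -0.72 and -0.49 after normexp background correction. Both genes met the detection filter mostly through GFP-low arrays, so their rank by p is not independent of that filter.

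**Figure D5:**
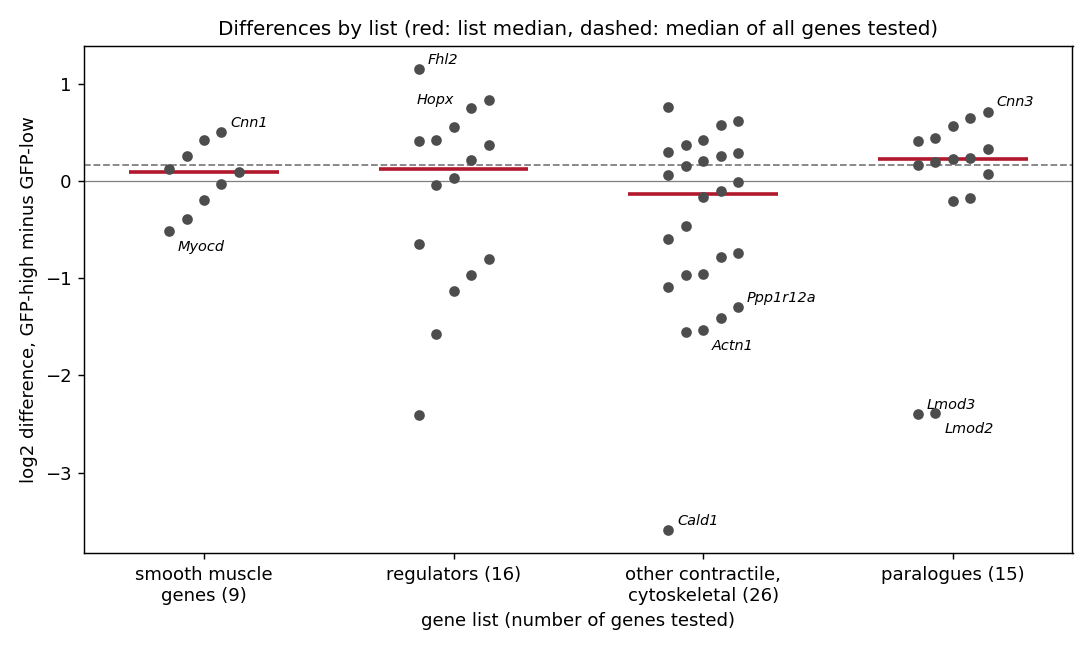
Differences of the tested genes of 4 lists (columns) as log2 GFP-high minus GFP-low (vertical axis). Each point is 1 gene, red lines are list medians (0.10 for the smooth muscle genes, 0.12, -0.13 and 0.22 for the others) and the dashed line is the median of all genes tested. The smooth muscle genes span -0.51 to 0.50, and the lowest points of the contractile genes and paralogues, Cald1 (-3.59) and Lmod3 (-2.40), rest on GFP-high values near background, with -1.80 and -1.03 under a common floor.

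Markers of other cells that a heart sort could hold were examined beside these values. Of 9 markers of vascular smooth muscle cells and pericytes, 7 were tested and none passed, with 4 positive and 3 negative differences and a median of 0.25, and Rgs5 and Itga8 were above background on 2 arrays each. Their summed level ran from 5.28 to 5.80 in GFP-high and from 4.71 to 5.22 in GFP-low, without overlap. That sum is weighted to Mcam, the brightest, which was higher on every GFP-high array, by 0.89 (limma, adjusted p = 0.278). Kcnj8 was lower on every GFP-high array, by a difference of -1.60 (limma, adjusted p = 0.327). By its best probe it was above background on 7 arrays, and its GFP-high mean was -1.80, near the background. How far the size and separation of the Kcnj8 difference rest on values near background was not tested. Of 12 markers of cushion mesenchyme and fibroblasts, 5 were tested, with a median of -0.77 and a summed level of 2.05 to 3.26 in GFP-high and 2.87 to 3.70 in GFP-low. Endothelial markers had 4 of 10 tested and a summed level of 0.26 to 2.25 against 0.72 to 2.32. By their best probe, Nfatc1 and Esam were above background on all 8 arrays, Cdh5 and Kdr on 5, and Pecam1 and Tek on none. Of the epicardial markers 5 of 8 were tested (3.0 to 3.21 against 2.41 to 3.05), all 5 with positive differences. Tbx18 and Krt19 were above background on all 8 arrays, and Upk3b, Upk1b and Msln on none. Outflow tract and second heart field markers had 6 of 9 tested (3.12 to 3.38 against 2.89 to 3.44). Neural crest had 1 of 6 tested (-0.33 to 0.32 against -0.46 to 0.02). Leukocyte markers had 2 of 6 tested, Lyz2 and Cd68. Their summed level was 3.41 to 3.92 in GFP-high and 1.78 to 2.44 in GFP-low, without overlap. Lyz2, the brighter, weighs most in that sum and was higher on every GFP-high array, by 1.46 (limma, adjusted p = 0.0948). The Cd68 groups overlapped, at a difference of 0.94 (limma, adjusted p = 0.535). Ptprc and Csf1r were above background on no array, and no probe of Fcer1g or Tyrobp on more than 1. Erythroid markers had 6 of 8 tested, and their summed level ran from 4.69 to 7.54 in GFP-high and from 3.67 to 7.43 in GFP-low. The part of these cells in the levels of the smooth muscle genes was not tested.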

How the data were processed

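The files deposited by the authors give linear spot intensity values, read from the images with Agilent Feature Extraction 10.5.1.1, per the submitters' processing notes. Per the file headers, it subtracted background, removed trends and replaced the lowest intensity values by surrogates (34.8% to 49.4% of the spots of an array). The value table of the series held the same intensities.

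Processed signals of 43379 non-control spots per array were put on a log2 scale and set to 0 at the 75th percentile of their array (R 4.3.3, limma 3.58.1). Outlier spots were left out and repeated spots averaged. Probes took current symbols from the GRCm38.p6 gene table (33070 of 41174). The brightest probe stood for a gene. The 12875 genes measured above background by it on 4 or more of the 8 arrays were tested with lmFit and eBayes for the group, without other terms, and their p-values adjusted together (Benjamini-Hochberg). Mylk was left out by this filter. The fit was tested on simulated arrays. A median centring, quantile normalisation, normexp (offset 50), a common floor, other filters and probe rules, slide and replicate blocks and leaving out arrays were the alternatives.

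The smooth muscle genes and all lists were chosen with earlier results of these data known. Named from each pathway list were genes past the threshold or, with none, the 3 with the smallest p. For 1 gene so named, and for the sequence of 1 probe, nothing is reported here. Srf, Mkl1, Mkl2, Actc1, Acta1, Lyz2, Cd68, Fcer1g, Tyrobp, Mcam, Kcnj8 and the values of Nppa and Mybpc3 were added after their values were seen. A summed level is log2 of the sum of scaled linear signals of a list's tested genes. The p-values measure the spread between these samples.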

Additional observations from a re-analysis of the deposited data

Results flagged for a closer look

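In 4 of 36 groups of 4 arrays checked over the 18 probes, 1 array lay apart from the other three by Dixon's 95% criterion, which chance gives in about 1 in 20 groups. Actg2 read 6.76 in GFP-high replicate 3, where the other GFP-high arrays read 7.36 to 7.45. Tagln2 read 0.030 in GFP-low replicate 1, where the others read -0.90 to -0.86. The Mylk probe at chr16:34954118-34954177 read -0.47 in GFP-low replicate 1, where the others read -5.63 to -5.08 and were not well above background. The brighter Myocd probe read 4.10 in GFP-high replicate 2, where the others read 4.75 to 4.88.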

How the results depend on the processing

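The count of smooth muscle genes called was 0 under all 25 alternatives. Of 215 refitted differences of these genes, 198 kept their sign, 17 turned and none passed, with a lowest adjusted p of 0.244 in limma. Among those that turned, Tagln was -0.044 with quantile normalisation, -0.12 with normexp, -0.12 with both and -0.011 within slide 1, and Acta2 was -0.15 as the mean over its probes. Within slide 1, Smtn was 0.13 and Lmod1 0.044, and within slide 2, Tagln2 was 0.37 and Myh11 -0.052. Leaving out 1 array turned Tagln to -0.07 (GFP-high replicate 4) and -0.093 (GFP-low replicate 3), Acta2 to -0.11 (GFP-low replicate 3), Smtn to 0.070 and Lmod1 to 0.21 (GFP-high replicate 3), Lmod1 to 0.039 (GFP-low replicate 4), and Tagln2 to 0.083 (GFP-high replicate 1) and 0.20 (GFP-low replicate 1). Over the fits that left out 1 array, values ran from -0.11 to 0.45 for Acta2, -0.093 to 0.34 for Tagln, -0.17 to 0.20 for Tagln2, -0.66 to 0.070 for Smtn, -0.63 to 0.21 for Lmod1 and 0.030 (without GFP-high replicate 2) to 0.26 (without GFP-high replicate 3) for Myh11. The cause was not tested. Cnn1, Actg2 and Myocd kept their sign in all 24 refits that gave 1 value per gene (0.33 to 0.62, 0.18 to 0.58 and -0.70 to -0.25). With every probe on its own, the second Myocd probe differed by 0.01.

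The count over all genes, 18, was 0 with median centring, 9 with quantile normalisation, 42 with a common floor, 0, 11 and 3 with filters of at least 1 array, all 8 arrays and none, 7 with every probe on its own, 11 with slide as a block, 0 within each slide and 0 to 7 when leaving out 1 array. In the main fit 1843 genes had an unadjusted p under 0.05. With the replicate number as a block, the count over all genes at an adjusted p under 0.05 was 0. It held 0 smooth muscle genes, with a lowest adjusted p among them of 0.274 in limma. Deviations of same-numbered samples correlated at 0.0647 to 0.303, with 3 of 4 pairs over 0.1, and 7 of 8 samples correlated best with their own number, a hint from the data and not from the design. The median over all genes moved between 0.05 and 0.27. With the laxer scanner flag, 17 in place of 13 probes were above background on at least 4 arrays.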
